A study of Mus musculus with 2 samples.

Results

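Glycolysis and the citric acid cycle were described through 42 genes, chosen by symbol as the enzymes and carriers that take glucose through pyruvate and lactate and around the mitochondrial cycle, with the malate-aspartate shuttle and glutamate dehydrogenase. All 42 were found among the 32531 gene symbols counted. They comprise the glucose carrier Slc2a3, 14 genes of glycolysis, 4 of lactate handling, 7 of pyruvate entry into mitochondria, 12 of the cycle, and 4 of the shuttle and of glutamate metabolism. The counts came from translating ribosome affinity purification (TRAP), in which ribosomes tagged with EGFP on the protein Rpl10a are pulled down with antibodies and the RNA on them is sequenced. The mice were of the line Stard5-TRAP JX5852 (Stard5-EGFP/Rpl10a), where the tag is driven by regulatory sequence of Stard5, and were untreated controls. The tissue was ventral striatum, and the mice's age is not given in the sources used here. Replicates 1 and 2 of the pulled-down RNA form 1 group, and no comparison between conditions can be made. Nothing in the labels says that they came from separate animals, and their spread may therefore be technical only.

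Glycolysis splits glucose into pyruvate in the cytosol, and pyruvate either becomes lactate or enters mitochondria, where it is oxidised to acetyl-CoA and burned in the citric acid cycle. Neurons depend heavily on this oxidation for firing and synaptic transmission, while astrocytes are known for storing glycogen and for releasing lactate. Several steps have paralogous enzymes that differ between tissues, such as the neuronal enolase Eno2 and the widely expressed Eno1, or the heart-type and muscle-type lactate dehydrogenase subunits Ldhb and Ldha.

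Named genes held 25830282 reads in replicate 1, against 29574781 reads in replicate 2. Levels are reported in CPM, reads per 1000000 reads in named genes, or in RPKM, which is CPM per 1000 merged exon bases and is used wherever genes are compared. The 8 markers of striatal spiny neurons, such as Ppp1r1b, Pde10a and, with the highest mean RPKM, Gnal, were each above 100 CPM in both libraries and spanned 41.3 to 255 RPKM in replicate 1 and 44.5 to 204 RPKM in replicate 2. In replicates 1 and 2, the 10 astrocyte markers summed to 1085 and 3254 CPM and the 8 oligodendrocyte markers to 853.5 and 1330 CPM. Slc1a2, the highest of the astrocyte list by RPKM, alone held 741 and 2496 CPM. The median of that list was 13.1 and 38.2 CPM. The 4 oligodendrocyte precursor markers summed to 60.0 and 145 CPM, and the 6 microglial markers to 164 and 122 CPM. The 6 endothelial markers summed to 28.6 and 22.7 CPM and the 2 red cell genes found to 5.30 and 8.18 CPM. By mean RPKM, though not always by CPM, the highest genes of these lists were Pdgfra, Ctss, Slco1a4 and Hbb-bs, in that order. In such bulk RNA, more cells of a type, more RNA per cell and untagged RNA carried along in the pull-down cannot be told apart. Both libraries are of pulled-down RNA, and none is of the whole tissue.

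Copies of some of these genes elsewhere in the genome bear on their levels, since reads that align to several places were counted apart. Such reads formed 27.9% of counted reads in replicate 1 but 13.6% in replicate 2. For 14 of the 42 genes, 10% or more of the 50-base windows of the coding sequence also occurred in an annotated transcript of another locus, against 8.99% of all detected genes. Of those 14 genes, 8 were among the 14 of glycolysis and 1 was among the 12 of the cycle. The share was 100% in Pgk1 and Pgam1, 94.2% in Gapdh, whose transcripts shared windows with 213 annotated pseudogenes, and 83.3% in Eno1. It was 64.3% in Got2, 57.7% in Suclg2, 46.9% in Pkm, 46.2% in Mpc1, 43.1% in Pdhb, 35.6% in Ldhb, 32.4% in Gpi1, 28.4% in Ldha, 16.8% in Aldoa and 13.7% in Tpi1. In 25 genes, among them Eno2, Hk1, Hk2, Mdh1, Mdh2 and Got1, no such window was found elsewhere. With windows of 100 bases the share was still 100% in Pgk1 and Pgam1, and 93.9% in Gapdh and 69.3% in Eno1, but 10.6% in Pkm and 11.7% in Ldhb. The read length is not given in the sources used here, and how far such copies lowered any level was not tested.

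Stretches of 2 genes show what a short read meets. Bases 2 to 151 of the coding sequence of Pgk1, the phosphoglycerate kinase on chromosome X, are given from the GENCODE M21 transcripts of GRCm38. They recur without a mismatch in its copy Pgk1-rs7 on chromosome 12, so the stretch is printed once. The 150 first coding bases of Ldhb, on chromosome 6, stand beside the same stretch of its copy Gm5514 on chromosome 19, with the 5 mismatches in capitals.
Pgk1 and Pgk1-rs7: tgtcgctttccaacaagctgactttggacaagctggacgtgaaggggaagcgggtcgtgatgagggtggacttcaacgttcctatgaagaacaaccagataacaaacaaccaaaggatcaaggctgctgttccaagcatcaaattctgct
Ldhb: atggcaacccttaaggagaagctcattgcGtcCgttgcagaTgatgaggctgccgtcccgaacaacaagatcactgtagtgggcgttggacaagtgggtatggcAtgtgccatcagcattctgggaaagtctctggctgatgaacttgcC
Gm5514: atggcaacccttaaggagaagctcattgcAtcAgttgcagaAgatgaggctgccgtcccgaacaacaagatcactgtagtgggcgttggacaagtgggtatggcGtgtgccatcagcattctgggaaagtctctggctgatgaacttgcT

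**Figure D1:**
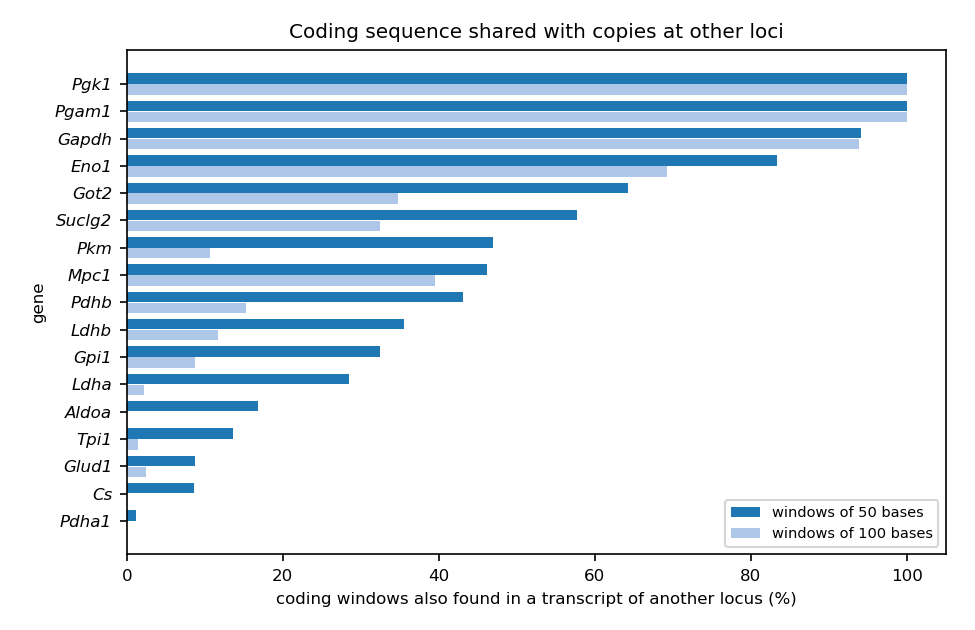
Share of the coding windows of each gene, in percent, that also occur in an annotated transcript of another locus, for windows of 50 bases (dark bars) and 100 bases (light bars). The 17 genes with a share above 0 are shown, and Pgk1, Pgam1, Gapdh and Eno1 stay above 69% at both window lengths.

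All 42 genes passed the detection limit of 1 CPM in each library, against 38% of all symbols. In both libraries 35 of them reached 10 CPM and 23 reached 100 CPM, against 7823 and 1915 of 12374 detected genes. Together the 42 genes took 1.09% of the reads of named genes in replicate 1 and 1.06% in replicate 2. Their median of mean levels was 31.0 RPKM, against 5.31 RPKM over all detected genes with a gene model. The mean level of 21 of the 42 exceeded 32.0 RPKM, the 90th percentile of detected genes, which 10% of these pass by construction. By mean RPKM, Gapdh, Ldhb, Mdh1, Got1 and Aldoa were the highest of the 42, and Eno1, Slc16a7, Suclg2, Hk2 and Mpc1 the lowest. This order is per kilobase of exon and can differ per coding length.

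**Figure D2:**
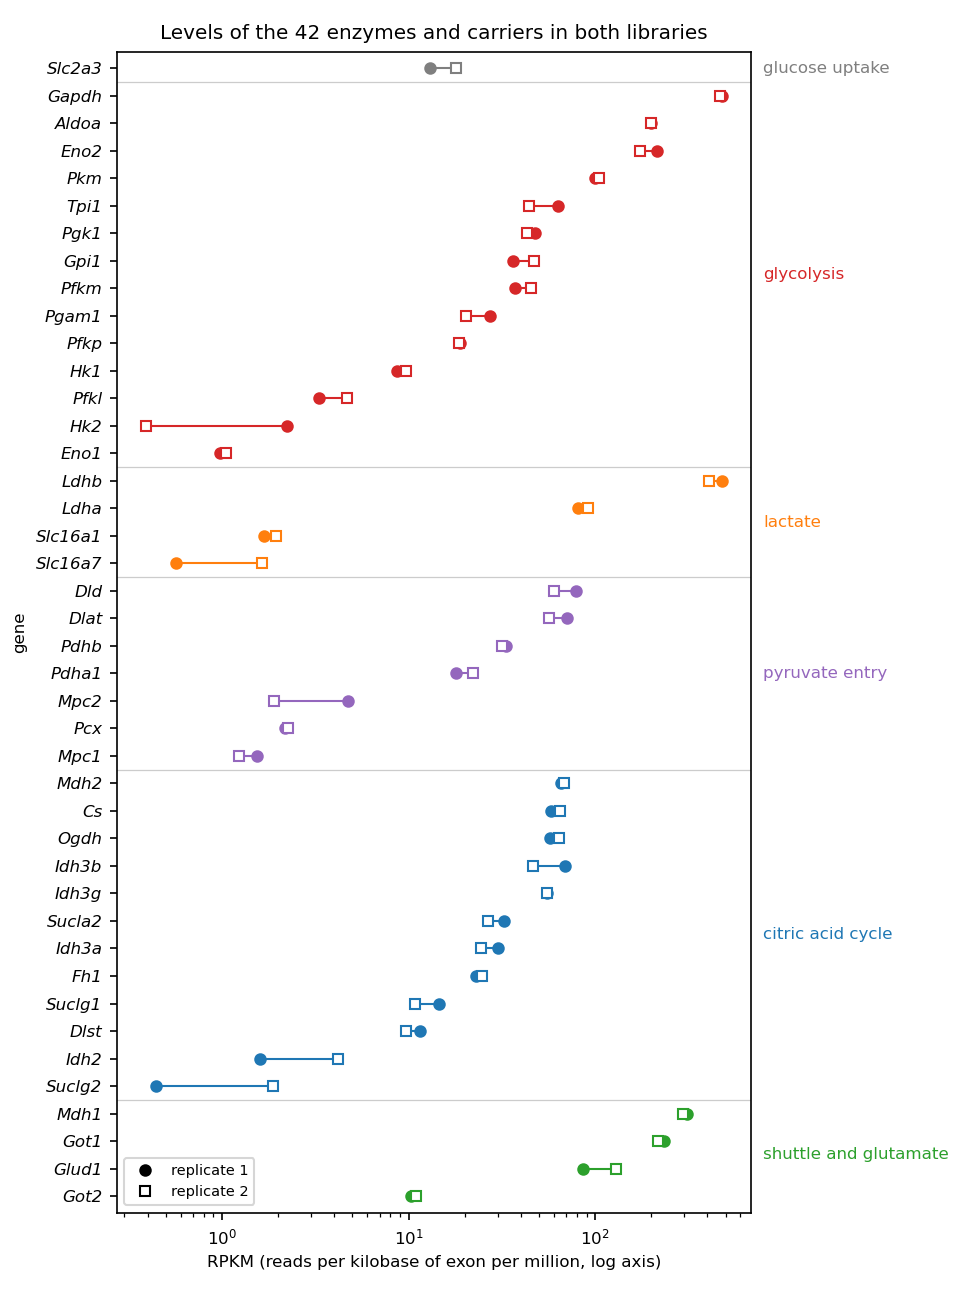
Level of each of the 42 genes in RPKM on a log axis, ordered within 6 roles by mean level, with replicate 1 as filled circles and replicate 2 as open squares joined by a line. Gapdh and Ldhb lie above 400 RPKM in both libraries, while Hk2 and Suclg2 show the longest lines.

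Glucose enters neurons through Slc2a3, the neuronal glucose transporter, and is trapped by hexokinase. Slc2a3 had 94.97 CPM in replicate 1 and 129 in replicate 2, which is 13.1 and 17.9 RPKM. Slc2a1, the transporter of vessels and glia, was below it in both libraries, at 9.94 and 10.7 RPKM. The log2 ratio per kilobase of exon of Slc2a3 over Slc2a1 was 0.57 ± 0.24 (SD, n = 2), or 1.62 per coding length. The size of this gap thus depends on the length used.

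Hk1, the hexokinase of brain, on chromosome 10 (62268855 to 62379908, GRCm38), had 73.9 CPM in replicate 1 and 83.2 in replicate 2. Hk2, the insulin-responsive hexokinase of muscle and fat, on chromosome 6 (82725025 to 82774454), stood at 13.4 CPM in replicate 1, from 346 reads, and at 2.33 CPM in replicate 2, from 69 reads. Hk1 was above Hk2 in both libraries, but the size of the gap differed between them. Hk1 over Hk2 was 3.86-fold per kilobase in replicate 1 and 25.0-fold in replicate 2. The hexokinase genes Hk3 and Hkdc1 had 0 reads in both libraries. The floor of 3 reads lies at 0.116 and 0.101 CPM in these libraries, and the upper exact 95% bound for 0 reads at 0.143 and 0.125 CPM.

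Phosphofructokinase, which commits sugar to glycolysis, has a muscle, a platelet and a liver subunit, and the order of the leading 2 depended on the length used. Pfkm stood at 124 and 151 CPM, Pfkp at 253 and 250 CPM and Pfkl at 22.2 and 31.2 CPM in replicate 1 and replicate 2. Per kilobase of merged exon, Pfkm led with 37.0 and 45.1 RPKM, Pfkp followed with 18.9 and 18.7 RPKM, and Pfkl had 3.33 and 4.67 RPKM. The log2 ratio of Pfkm over Pfkp was 1.12 ± 0.21 (SD, n = 2) on that scale and -0.88 per coding length, since the merged exons of Pfkp span 13401 bases and those of Pfkm 3340. Pfkl was the lowest in both libraries on either scale, with 6.23% ± 0.85 (SD, n = 2) of the 3 genes' reads per kilobase of exon and 6.42% ± 1.17 per kilobase of coding sequence.

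Outside hexokinase, phosphofructokinase and enolase, glycolysis held its highest level, that of Gapdh, and most of its genes with copies elsewhere. Gapdh, glyceraldehyde-3-phosphate dehydrogenase, on chromosome 6 (125161715 to 125166467), had 478 RPKM in replicate 1 and 466 RPKM in replicate 2, rank 18 of 11485 detected genes with a gene model. Aldoa, the aldolase of muscle and brain that cuts fructose bisphosphate, had 198 and 200 RPKM. Pkm, the pyruvate kinase gene of muscle and brain, had 99.7 and 104 RPKM. These 3 genes differed between the libraries by less than 0.1 on the log2 scale, and all of them have coding windows in common with other loci. Tpi1, triose phosphate isomerase, had 62.97 and 44.0 RPKM, and Gpi1, glucose phosphate isomerase, had 36.1 and 47.0 RPKM. Pgk1 had 47.7 and 43.0 RPKM and Pgam1, phosphoglycerate mutase, 27.3 and 20.2 RPKM, and for both of these genes no coding window of 50 bases was free of copies. The muscle mutase Pgam2 had 8.53 and 6.56 RPKM.

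Enolase was carried by the neuronal gene. Eno2, on chromosome 6 (124760053 to 124769673), had 1005 CPM in replicate 1 and 822 CPM in replicate 2, which is 214 and 175 RPKM. Eno1, on chromosome 4 (150236721 to 150248879), had 5.23 CPM from 135 reads in replicate 1 and 5.68 CPM from 168 reads in replicate 2, the lowest mean RPKM of the 42 genes. Eno2 over Eno1 was 220-fold per kilobase in replicate 1 and 165-fold in replicate 2, a log2 ratio of 7.57 ± 0.29 (SD, n = 2). Eno2 has no coding window at another locus while 83.3% of those of Eno1 do, most of all in the copy Eno1b, which was counted with 21 and 15 reads. The part of this in the ratio was not tested. Of the other enolases, the muscle gene Eno3 had 28 and 12 reads and Eno4 had 103 and 134 reads.

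Of the lactate dehydrogenase subunits, Ldhb was the higher in both libraries. Ldhb, the heart-type subunit, on chromosome 6 (142490249 to 142507957), had 476 RPKM in replicate 1 and 408 RPKM in replicate 2. Ldha, the muscle-type subunit, on chromosome 7 (46841475 to 46855627), had 80.9 and 91.4 RPKM. Ldhb over Ldha was 5.89-fold and 4.46-fold, a log2 ratio of 2.36 ± 0.28 (SD, n = 2), and 1.39 per coding length. The testis subunit Ldhc had 0 reads in both libraries. Ldhb shares 35.6% of its coding windows with other loci and Ldha 28.4%.

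The carriers that move lactate across the cell membrane were low. Slc16a1 (MCT1), a carrier of glia and vessels, had 7.43 CPM in replicate 1 and 8.66 CPM in replicate 2. Slc16a7 (MCT2), the neuronal carrier, had 6.74 CPM from 174 reads in replicate 1 and 19.3 CPM from 572 reads in replicate 2. Slc16a1 over Slc16a7 had a log2 ratio of 0.91 ± 0.92 (SD, n = 2) per kilobase of exon and -0.54 per coding length, so neither gene can be called the higher. The glial lactate exporter Slc16a3 (MCT4) had 23 and 11 reads.

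The regions before the start sites of the lactate dehydrogenase subunits are given from RefSeq (GRCm38.p6) to show how differently the motifs searched can fall in 2 genes of a single reaction. Capitals mark GGGCGG, the GC box bound by Sp factors, and ACGTG, the core of hypoxia response elements, on either strand. The window of Ldhb is chr6:142507958-142508207 on the minus strand and the upstream window of Ldha is chr7:46845554-46845803 on the plus strand, both of 250 bases and written 5′ to 3′ along the gene.
Ldhb: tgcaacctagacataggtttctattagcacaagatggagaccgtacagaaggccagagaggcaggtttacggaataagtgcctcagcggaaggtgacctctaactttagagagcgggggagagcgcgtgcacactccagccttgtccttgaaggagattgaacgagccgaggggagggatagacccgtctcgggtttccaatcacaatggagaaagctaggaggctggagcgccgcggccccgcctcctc
Ldha: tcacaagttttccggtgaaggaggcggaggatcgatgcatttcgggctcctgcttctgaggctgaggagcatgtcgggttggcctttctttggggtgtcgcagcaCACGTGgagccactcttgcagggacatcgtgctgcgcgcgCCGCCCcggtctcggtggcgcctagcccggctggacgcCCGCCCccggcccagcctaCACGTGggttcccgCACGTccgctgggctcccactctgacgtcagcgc

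The Ldha window holds 2 GC boxes and 5 matches to ACGTG, where each CACGTG counts on both strands and so overlaps itself, and the Ldhb window holds none of either. The further RefSeq start of Ldha has a window with none. Over windows from 250 bases before to 50 bases after the start, 39 of the 42 genes had an entry. GGGCGG occurred in 27 of these 39 (69.2%), against 69.8% of 9091 detected genes and 38.2% of all genes with an entry. ACGTG occurred in 15 of 39 (38.5%), against 29.6% of detected genes and 21.8% of all genes. TATAAA, the TATA box, occurred in 2 of 39 (5.13%), against 8.47% of detected genes, and TGACG, a part of the cyclic AMP response element, in 14 of 39 (35.9%), against 36.4%. Such matches describe letters only.

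Pyruvate enters mitochondria through the carrier made of Mpc1 and Mpc2, whose genes were among the lowest per kilobase of exon. Mpc1 had 3.21 CPM from 83 reads in replicate 1 and 2.57 CPM from 76 reads in replicate 2, with 46.2% of its coding windows also elsewhere. Mpc2 had 34.8 CPM in replicate 1 and 13.9 CPM in replicate 2. Mpc2 was above Mpc1 in both libraries, at a log2 ratio of 1.12 ± 0.71 (SD, n = 2) per kilobase of exon and 3.33 per coding length. The merged exons of Mpc2 span 7344 bases, of which 381 are coding, so its place in the order depends on the length used.

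On the scale per kilobase of exon, the 4 chosen genes of the pyruvate dehydrogenase complex were above both carrier genes in each library. Dld, the dihydrolipoyl dehydrogenase it shares with the oxoglutarate complex, had 78.7 RPKM in replicate 1 and 60.3 RPKM in replicate 2. Dlat, the acetyltransferase core, had 70.9 and 56.4 RPKM. The decarboxylase subunits were lower, Pdhb at 33.5 and 31.7 RPKM and Pdha1 at 18.1 and 22.3 RPKM. Pdhx, a further gene of the complex outside the chosen set, was below Pdha1 in both libraries, at 12.1 and 13.8 RPKM. Dld over Dlat had a log2 ratio of 0.12 ± 0.04 (SD, n = 2) per kilobase of exon and -0.28 with no length correction, so their order is not set. Pdhb was above Pdha1 in both libraries, at 0.70 ± 0.27 (SD, n = 2). Pcx, pyruvate carboxylase, an anaplerotic enzyme ascribed to astrocytes in brain, had 2.18 and 2.27 RPKM. Pdhb over Pcx was 15.3-fold and 14.0-fold per kilobase.

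Of the 12 genes of the citric acid cycle, 10 lay between 9.73 and 69.0 RPKM in both libraries, with Idh2 and Suclg2 below them. Cs, citrate synthase, had 58.2 RPKM in replicate 1 and 64.6 RPKM in replicate 2. Ogdh, the decarboxylase of the oxoglutarate complex, had 57.0 and 64.3 RPKM, and Mdh2, the mitochondrial malate dehydrogenase, had 65.4 and 68.2 RPKM. Cs and Ogdh thus overlapped in level, and Mdh2 was the highest of the 3 in each library. Fh1, fumarase, had 23.0 and 24.6 RPKM. Dlst, the succinyltransferase core of the oxoglutarate complex, had 11.6 and 9.73 RPKM, and Ogdh over Dlst had a log2 ratio of 2.51 ± 0.30 (SD, n = 2) per kilobase of exon and 0.52 per coding length.

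Isocitrate dehydrogenase was carried by the NAD-dependent enzyme, built of the catalytic subunit Idh3a and the regulatory subunits Idh3b and Idh3g. Idh3a had 30.1 RPKM in replicate 1 and 24.5 RPKM in replicate 2, Idh3b 69.0 and 46.4 RPKM, and Idh3g 55.1 and 54.9 RPKM. Idh3a was the lowest of the 3 in both libraries, with 19.5% ± 0.05 (SD, n = 2) of their reads per kilobase of exon. Per coding length its share was 28.8% ± 0.31, and it then exceeded Idh3g in replicate 1. The order of Idh3b and Idh3g differed between the libraries, with a log2 ratio of 0.32 in replicate 1 and -0.24 in replicate 2 per kilobase of exon. Per coding length Idh3b was the higher in both, with log2 ratios of 0.70 and 0.13. Idh2, the NADP-dependent mitochondrial enzyme, on chromosome 7 (80094846 to 80115392), had 4.14 CPM from 107 reads in replicate 1 and 10.8 CPM from 320 reads in replicate 2. Idh3a over Idh2 was 18.8-fold and 5.86-fold per kilobase. The cytosolic Idh1 had a mean of 5.85 ± 1.36 RPKM (SD, n = 2).

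Succinyl-CoA ligase pairs the subunit Suclg1 with either Sucla2, which makes ATP, or Suclg2, which makes GTP, and the ATP-forming gene was the higher. Sucla2, on chromosome 14 (73525319 to 73596142), had 32.3 RPKM in replicate 1 and 26.7 RPKM in replicate 2. Suclg2, on chromosome 6 (95473009 to 95718800), had 0.44 RPKM from 53 reads in replicate 1 and 1.87 RPKM from 256 reads in replicate 2. Sucla2 over Suclg2 was 72.8-fold in replicate 1 and 14.3-fold in replicate 2, a log2 ratio of 5.01 ± 1.66 (SD, n = 2). Of the coding windows of Suclg2, 57.7% also occurred at another locus, and none of those of Sucla2 did. The part of that in the ratio was not tested. Suclg1 had 14.5 and 10.8 RPKM, below Sucla2 in both libraries.

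The malate-aspartate shuttle, which carries reducing power from glycolysis into mitochondria, had far higher levels of its cytosolic enzymes than of their mitochondrial counterparts. Mdh1, the cytosolic malate dehydrogenase, on chromosome 11 (21556787 to 21572367), had 310 RPKM in replicate 1 and 297 RPKM in replicate 2. Mdh1 over Mdh2 was 4.74-fold and 4.35-fold per kilobase, a log2 ratio of 2.18 ± 0.09 (SD, n = 2). Got1, the cytosolic aspartate transaminase, on chromosome 19 (43499752 to 43524605), had 233 and 219 RPKM, and the mitochondrial Got2 had 10.2 and 10.9 RPKM. Got1 over Got2 was 22.8-fold and 19.96-fold, a log2 ratio of 4.41 ± 0.13 (SD, n = 2). Per coding length these log2 ratios were 1.73 and 3.55. Got2 shares 64.3% of its coding windows with other loci, whereas Mdh1, Mdh2 and Got1 share none, and the part of that was not tested. Glud1, the glutamate dehydrogenase that feeds glutamate into the cycle, had 86.6 and 129 RPKM.

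Pairs were formed of genes that share a reaction, a complex or a substrate, and some genes stand in several pairs. Per kilobase of exon, the first-named gene was the higher in both libraries in 20 of 21 pairs, Idh3b and Idh3g being the exception. The pairs were chosen with earlier results of these data known, so this count is no test of the pathway. It describes only how far the order held in both libraries. The order held for 18 of 21 pairs per coding length and for 17 with no length correction, so the count depends on the length used. Per coding length the order differed between the libraries for Slc16a1 over Slc16a7, with log2 ratios of 0.12 and -1.19, and for Idh3g over Idh3a, with -0.07 and 0.22. The median level of the glycolysis genes exceeded that of the cycle genes by a log2 value of 0.23 in replicate 1 and 0.76 in replicate 2. Per coding length the mean difference was -0.0073, so the groups cannot be ranked.

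**Figure D3:**
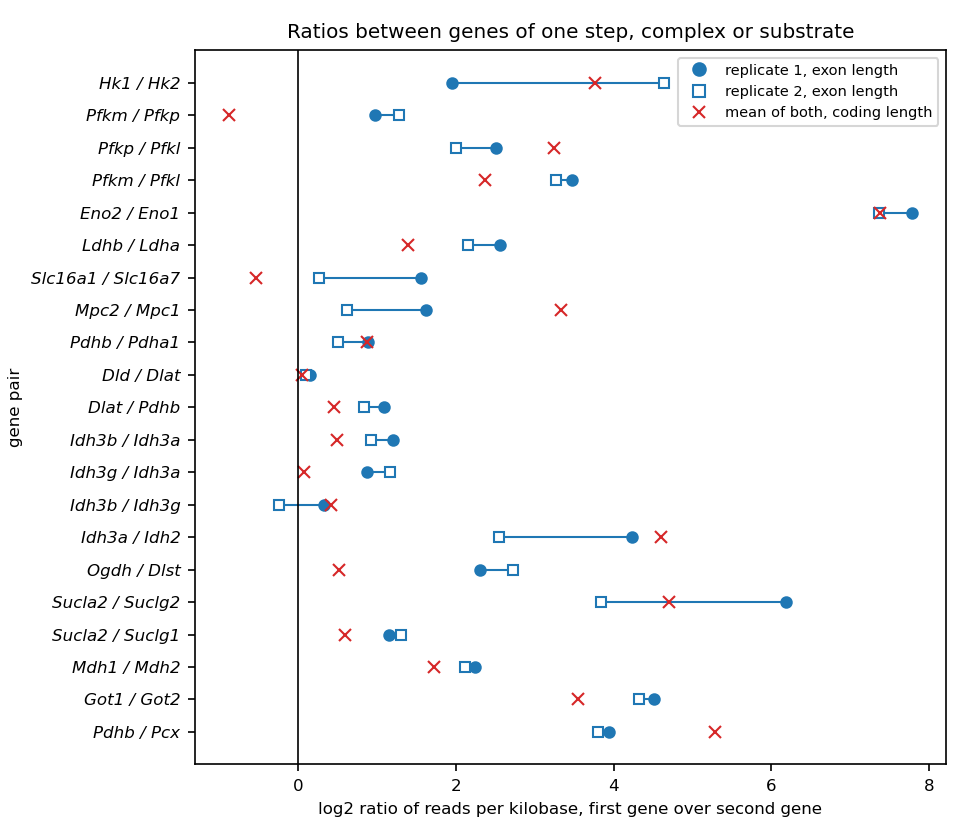
Log2 ratio of reads per kilobase between the genes of a pair, first-named gene over the other, per kilobase of exon in replicate 1 (filled circles) and replicate 2 (open squares), and the mean per coding length (crosses). Eno2 over Eno1 and Sucla2 over Suclg2 lie farthest to the right, and Pfkm over Pfkp and Slc16a1 over Slc16a7 change sign with the length.

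Genes outside the 42 that belong to the same metabolism were taken from a list of 77, of which 58 were detected. Succinate dehydrogenase, which links the cycle to the respiratory chain, had Sdha at 134 and 139 RPKM, Sdhd at 126 and 67.1 RPKM, Sdhc at 38.9 and 24.3 RPKM and Sdhb at 27.2 and 18.7 RPKM in replicate 1 and replicate 2. Oxct1, which lets cells use ketone bodies, had 118 and 133 RPKM, and Acat1, the next enzyme of that route, had 41.1 and 35.4 RPKM. Slc25a12, the aspartate-glutamate carrier of the shuttle in brain, had 35.04 and 33.4 RPKM. Acly, which makes cytosolic acetyl-CoA from citrate, had 31.0 and 36.8 RPKM. Glul, the glutamine synthetase of astrocytes, had 120 RPKM in replicate 1 and 262 RPKM in replicate 2, and Aldoc, the aldolase known from astrocytes and Purkinje cells, had 24.7 and 69.0 RPKM. Aldoa over Aldoc was 8.01-fold and 2.91-fold per kilobase.

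Most of the 42 genes were close in level between the libraries. A ratio within 1.5-fold, after scaling by TMM (the trimmed mean of M-values), held for 36 of 42 (85.7%), against 61.5% of detected genes. The 42 also had the higher median level, 31.0 against 5.31 RPKM, and the part of level in this closeness was not tested. The median log2 ratio of replicate 2 over replicate 1 was 0.03 for the 42 and -0.0024 for all detected genes. Suclg2, Slc16a7 and Idh2 were 2-fold or more higher in replicate 2, against 9.57% of detected genes, with log2 ratios of 2.10, 1.55 and 1.41. Hk2 and Mpc2 were 2-fold or more higher in replicate 1, against 7.78% of detected genes, with log2 ratios of -2.50 and -1.30. The 95% counting intervals of these 5 log2 ratios ran from 1.67 to 2.56 for Suclg2, 1.30 to 1.80 for Slc16a7, 1.09 to 1.74 for Idh2, -2.89 to -2.12 for Hk2 and -1.47 to -1.13 for Mpc2. Intervals of this kind cover counting error only, and no test of a group is possible with 2 libraries of a single group.

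Of the 58 other pathway genes detected, 14 (24.1%) were 2-fold or more higher in replicate 2 and 0 in replicate 1. They included Aldoc, Glul (log2 ratio 1.16), the glycogen phosphorylase of brain Pygb (1.23) and malic enzyme Me1 (2.67). Of the coding windows of 50 bases, 52.5% in Me1, 32.0% in Glul, 0.52% in Pygb and 0% in Aldoc also occurred at other loci. The part of such copies in these ratios was not tested. Among astrocyte markers 7 of 10 were also 2-fold or more higher in replicate 2, and the list's median log2 ratio was 1.56. The same held for 3 of 8 oligodendrocyte markers, whose median was 0.74. Of the 8 spiny neuron markers 0 passed 2-fold, and their median was -0.34. In smaller lists, 1 of 3 detected oligodendrocyte precursor markers and 1 of 2 red cell genes were 2-fold or more higher in replicate 2. Of 6 microglial markers 0 passed 2-fold, and 1 of 5 detected endothelial markers was 2-fold or more higher in replicate 1. The median log2 ratio also ran with exon length, from -0.63 in the shortest of 20 bins to 0.33 in the longest. The part of either in the ratios of single genes was not tested.

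**Figure D4:**
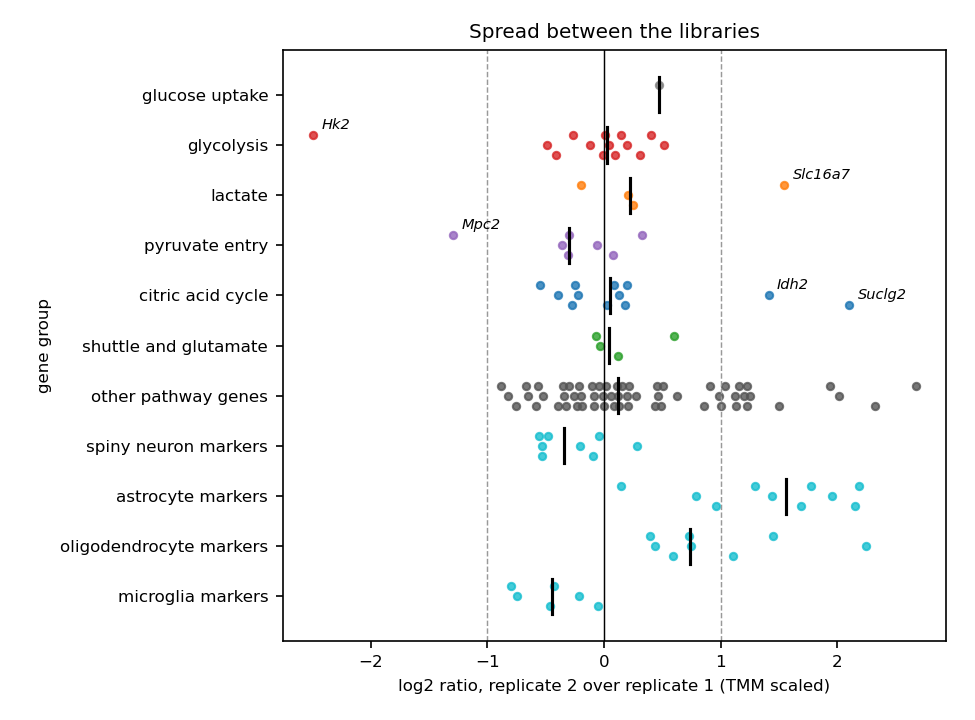
Log2 ratio of replicate 2 over replicate 1 after TMM scaling for each detected gene, by role of the 42 genes and for the other pathway genes and 4 marker lists. Black bars are medians, dashed lines mark 2-fold, and the 5 named genes are those of the 42 beyond it.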

How the data were processed

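For each library the authors deposited a file of raw counts by gene symbol. The submitters' processing notes name the aligner STAR (2.0.0e), the counter HTSeq and the build mm10. Annotation, strand setting and read length are not given in the sources used, so reads of overlapping or antisense genes cannot be told apart. For 5 of the 42 genes over 10% of the exon bases overlap another gene, namely Mpc1, Pdha1, Pkm, Gpi1 and Pfkm. The files hold 6 lines that name no gene, and these were left out of all totals. Reads outside annotated exons made up 22.8% and 31.0% of counted reads in replicates 1 and 2, reads aligned to several places 27.9% and 13.6%, and ambiguous reads 1.84% and 2.08%.

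Counts were converted to CPM and, with merged exon lengths of GENCODE M21 on GRCm38, to RPKM, for 11485 of 12374 detected symbols. Libraries were scaled with TMM of edgeR 4.0.16 in R 4.3.3, and DESeq2 1.42.0 size factors were an alternative. Intervals are exact 95% intervals on counts. The ratio and the copy search were tested on simulated data. The copy search looked for each 50-base window of a gene's transcripts, in the same sense, in GENCODE transcripts of other loci. All 42 genes are named. Of 77 other pathway genes, those with the reaction or substrate of a member and the 8 others with the highest level are named, and of each marker list the member with the highest mean RPKM, except for 3 genes not reported here. Sdhb, Sdhc, Pygb, Me1 and Pdhx were chosen after their values were seen, and so were the marker examples Ppp1r1b and Pde10a. The members, lists and pairs were chosen with earlier results of these data known.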

Additional observations from a re-analysis of the deposited data

How the results depend on the processing

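Both gene length and the library left out moved values. Hk1 over Hk2 ran from 1.95 to 4.64 and Sucla2 over Suclg2 from 3.84 to 6.19 on the log2 scale when a single library was read. Per coding length and with no length correction, in that order, Pfkm over Pfkp had a log2 ratio of -0.88 and -0.88 and Slc16a1 over Slc16a7 of -0.54 and -0.51, the opposite direction of the values per kilobase of exon. Ldhb over Ldha was then 1.39 and 1.28, Mdh1 over Mdh2 1.73 and 1.71, and Got1 over Got2 3.55 and 3.49, and Idh3a over Idh2 was 4.60 per coding length. The difference between the medians of glycolysis and the cycle was -0.0073 per coding length. Dld over Dlat was -0.28 with no length correction, and Idh3b over Idh3g ran from -0.24 without replicate 1 to 0.32 without replicate 2. The lengths differ by construction, and other causes were not tested. The count of 5 genes past 2-fold was the same with DESeq2 size factors, total counts, 2 other filters and, chosen after seeing the data, a trend on exon length removed, while the median log2 ratio ran from 0.0057 to 0.13. At 5 CPM, 38 of the 42 genes were detected. No paired analysis was possible because the libraries form 1 group. Levels resting on few reads, such as Suclg2 with 53 and Hk2 with 69 reads in a library, are the least precise.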
